A study of Mus musculus with 12 samples.

Results

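The numbered zinc finger protein genes are the mouse genes whose symbol is Zfp followed only by digits. The 263 described here had a mean normalized count above 50 over the 12 libraries of the study, out of 367 such symbols in a table of 36047 genes, and Zfp36, which encodes a protein of another family, was left out by the rule. The members were chosen by their mean over all 12 libraries, so their level is a description and no finding. All 263 also passed the filter for testing, a mean above 10, as did 15249 genes in all. Of the other symbols, 58 had a mean above 10 and at most 50, and 46 had a mean of at most 10, of which 3 were at 0 in every library. Just inside the threshold were Zfp112 (mean 50.2), Zfp772 (50.3) and Zfp459 (50.6), and just outside it were Zfp941 (49.6), Zfp202 (49.6) and Zfp990 (48.5).

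RNA was sequenced from 3 subsets of eosinophils, sorted from proximal small intestine (SI) lamina propria of untreated female wild type C57BL/6J mice, with 4 libraries per subset. Live CD45+ CD11b+ SiglecF+ MHCII− Ly6G− cells were divided by integrin α4β7, which directs leukocytes to the gut, and by CD22, a sialic acid binding lectin: α4β7+, α4β7− CD22−, and CD22+. The study took them as approximately younger, intermediate and older residents of the tissue, and the comparisons ask which transcripts differ between them. Age is not given in the labels, each library pooled a pair of mice, and p-values measure the spread between these libraries. In sorted bulk RNA, fewer cells of a kind and less RNA per cell cannot be told apart.

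Most of these genes encode C2H2 zinc finger proteins, in which a pair of cysteines and a pair of histidines hold a zinc ion and each finger contacts a few bases of DNA. Many carry a KRAB domain at the amino terminus, which recruits the corepressor TRIM28 and with it histone methylation and heterochromatin, often over retroelements. KRAB zinc finger genes lie in clusters of related copies that arose by duplication. A few numbered symbols name unrelated proteins that act on RNA, ribosomes or the mitotic spindle.

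Library totals were 14286470 to 16915760 normalized counts, and reads were estimated at 13858260 to 17321910. Correlations of a library with the others of its subset averaged between 0.945 and 0.961, the lowest being α4β7+ replicate 2. No member was at 0 in any library. All 8 eosinophil markers examined were detected, and their summed level, from α4β7+ through α4β7− CD22− to CD22+ libraries, was 64956 to 79746, 45785 to 51638 and 33658 to 35562. Alox15 (means of 30556, 18333 and 11077) and Ccr3 (25121, 15187 and 10773) made up most of that sum, while Siglecf, a marker of the sort, had means of 7534, 7827 and 7340. Ribosomal protein genes made up 1.74% to 2.11%, 1.10% to 1.41% and 0.866% to 1.25% of the library totals in the same order. Of 5 neutrophil markers, 2 had a mean above 10 over all libraries, with a summed level of 64.9 to 98.3, 110.4 to 165.6 and 145.5 to 179.4, while Ly6g and Camp stayed at mean values of at most 2.93. Only Ngp had higher means in that order (31.6, 106.4 and 143.4), and those of Ltf (32.6, 18.9 and 13.5) and Mpo (12.7, 8.06 and 6.39) were lower. The stroma list summed to 10488 to 11967, 12629 to 13789 and 11448 to 12193, in which Pecam1 alone had its highest mean in α4β7− CD22− (12127) and the other 5 markers had their lowest there. The 5 of 7 T cell markers in the table summed to 828.6 to 1388, 537.1 to 812.9 and 818.1 to 1245. In both lists the α4β7− CD22− libraries did not overlap the other subsets. Summed levels of the epithelial, Paneth, B and plasma cell, mast cell, and macrophage and dendritic cell lists overlapped between all subsets. Some of these sums were large. The B and plasma cell list, led by Igha (means of 17465, 18100 and 23001), summed to 14767 to 32724, 10715 to 33076 and 15255 to 35847. Its range in CD22+ reached that of the eosinophil list. The epithelial list summed to 3478 to 7902, 2078 to 4866 and 1354 to 8228.5. The part of these differences in the results on zinc finger genes was not tested.

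The signature of the family is the finger itself. The coding sequence of 1 finger is shown for the members on which the results turn, taken from the coding exons of GRCm38, with the codons of the zinc-binding cysteines (TGC or TGT) and histidines (CAC or CAT) in capitals. The first 5 belong to genes that were higher in CD22+ than in α4β7+ eosinophils, and the last 3 to genes that were lower. They lie in coding exons at chr7:7132807-7132869 (minus strand, exon 4), chr8:71889407-71889469 (plus, exon 4), chr17:21508388-21508450 (plus, exon 5), chr17:33019435-33019497 (minus, exon 4), chr12:84337633-84337695 (plus, exon 9), chr15:25984565-25984633 (plus, exon 1), chr2:177475031-177475093 (plus, exon 4) and chr2:178033006-178033068 (plus, exon 4), in the order printed.
Zfp773: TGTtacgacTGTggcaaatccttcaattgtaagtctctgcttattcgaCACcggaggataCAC
Zfp709: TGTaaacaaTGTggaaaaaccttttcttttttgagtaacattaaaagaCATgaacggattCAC
Zfp53: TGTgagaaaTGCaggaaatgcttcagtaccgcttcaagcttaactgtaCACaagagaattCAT
Zfp763: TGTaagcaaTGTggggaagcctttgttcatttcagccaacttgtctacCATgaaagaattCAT
Zfp410: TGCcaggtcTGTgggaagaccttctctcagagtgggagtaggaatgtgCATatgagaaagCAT
Zfp622: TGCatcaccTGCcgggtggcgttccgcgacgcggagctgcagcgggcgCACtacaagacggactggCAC
Zfp970: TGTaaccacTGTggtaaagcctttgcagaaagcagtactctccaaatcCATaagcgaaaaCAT
Zfp971: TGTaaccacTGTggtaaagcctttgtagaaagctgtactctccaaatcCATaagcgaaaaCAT

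The printed fingers of Zfp970 and Zfp971 differ at 2 of 63 bases. By contrast, the finger of Zfp622 has longer spacing between its histidines.

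Of the 263 numbered zinc finger genes, 41 rose and 4 fell from α4β7+ to CD22+ eosinophils by limma, which asked for a Benjamini-Hochberg adjusted p no larger than 0.05 together with a change of 1.5-fold or more, where 5.60% of all genes tested rose and 6.39% fell. With libraries rescaled to the total without ribosomal protein genes the counts were 75 and 2. Under that scaling 1447 of all genes tested rose and 706 fell, beside 854 and 975 in the main scaling. Estimates were above 0 for 199 members (75.7%), most of them not called, and for 51.5% of all genes tested. The median log2 fold change was 0.24 over the members and 0.01 over all genes tested, so most members moved by less than the 1.5-fold minimum. With no minimum fold change, 67 members were higher and 9 lower, against 10% and 11.1% of all genes, and 114 had an unadjusted p under 0.05, against 32% of all genes. All 4 CD22+ libraries lay above all 4 α4β7+ libraries for 76 members and below them for 8, against 11% and 11.8% of all genes.

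**Figure D1:**
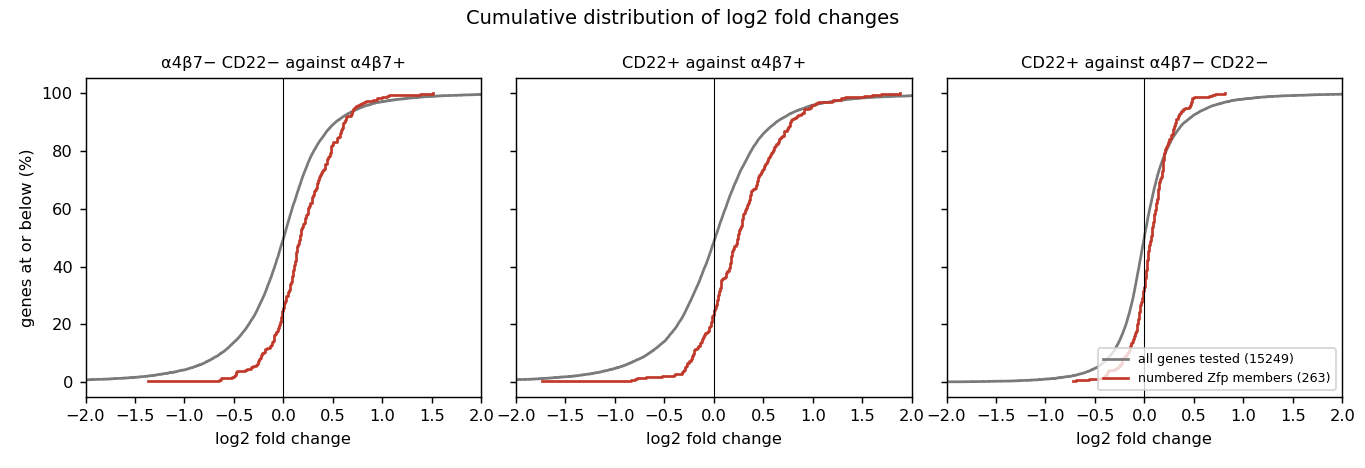
Share of genes (%, vertical axis) at or below each log2 fold change (horizontal axis, drawn from -2 to 2) for the 263 members (red) and the 15249 genes tested (grey) in the 3 comparisons. The members' curve crosses 50% at 0.17, 0.24 and 0.07 from left to right, where that of all genes crosses close to 0.

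The gene with the smallest adjusted p was Zfp773. Its normalized counts were 842.2, 788.4, 701.2 and 746.5 in the α4β7+ libraries, 1568, 1516, 1464 and 1595 in the α4β7− CD22− libraries, and 1893, 2001, 1846 and 1753 in the CD22+ libraries. The 3 subsets did not overlap, and the levels stepped up from α4β7+ to CD22+. The step from α4β7− CD22− to CD22+ was not called (log2 fold change 0.29 ± 0.08, limma adjusted p = 0.116). The log2 fold change of CD22+ against α4β7+ was 1.28 ± 0.08 (SE, n = 4 libraries each, limma adjusted p = 2.11e-08), and that of α4β7− CD22− against α4β7+ was 1.00 ± 0.08 (limma adjusted p = 7.68e-07).

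Zfp709, a gene on chromosome 8 with 18 finger matches and a KRAB A-box match, showed the same steps. Its counts were 110.2, 142.8, 154.9 and 164.2 in α4β7+, 274.6, 302.6, 195.6 and 311.5 in α4β7− CD22−, and 383.7, 464.5, 394.0 and 485.8 in CD22+ libraries. No library of 1 subset overlapped those of another, but CD22+ against α4β7− CD22− was not called (log2 fold change 0.69 ± 0.17, limma adjusted p = 0.0811). The log2 fold change of CD22+ against α4β7+ was 1.60 ± 0.17 (limma adjusted p = 7.35e-06).

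Zfp53, a KRAB gene of chromosome 17 with 15 finger matches, was at 242.4, 316.3, 290.5 and 311.6 in α4β7+, at 495.0, 478.4, 492.1 and 546.2 in α4β7− CD22−, and at 583.0, 649.3, 672.1 and 774.4 in CD22+ libraries. Here too the 3 subsets were fully separate, but CD22+ against α4β7− CD22− was not called (log2 fold change 0.41 ± 0.12, limma adjusted p = 0.142). Its log2 fold change of CD22+ against α4β7+ was 1.20 ± 0.12 (limma adjusted p = 2.43e-06).

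The largest estimated rise was that of Zfp763, a KRAB gene of another cluster on chromosome 17, with a mean count of 55.9. It read 25.8, 29.1, 15.1 and 17.4 in α4β7+, 60.2, 81.6, 41.1 and 73.0 in α4β7− CD22−, and 63.2, 107.5, 82.5 and 74.4 in CD22+ libraries. The α4β7− CD22− and CD22+ libraries lay above every α4β7+ library and overlapped each other. The log2 fold change of CD22+ against α4β7+ was 1.88 ± 0.30 (limma adjusted p = 0.000291).

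**Figure D2:**
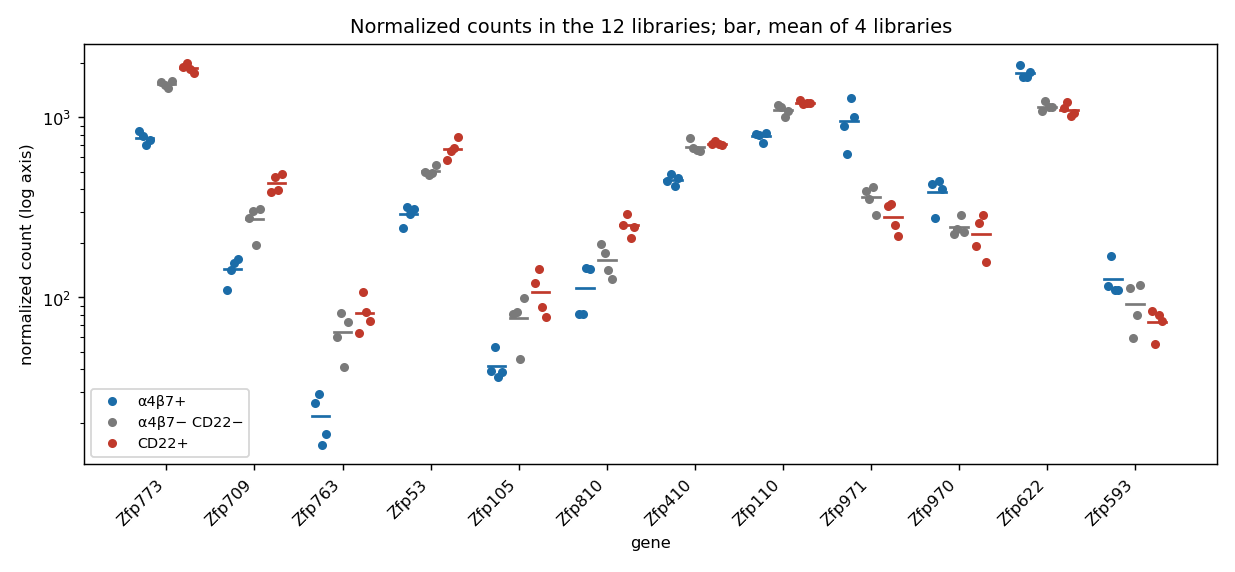
Normalized counts (vertical log axis) of 12 members in each of the 12 libraries, with points for libraries and horizontal bars for the mean of 4. Zfp773, Zfp709 and Zfp53 step up from α4β7+ (blue) through α4β7− CD22− (grey) to CD22+ (red) with no overlap, though their step from α4β7− CD22− to CD22+ was not called. Zfp971 and Zfp622 lie lower in both other subsets than in every α4β7+ library.

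Of the other members with a rise, Zfp995 (log2 fold change 1.69), Zfp457 (1.51), Zfp105 (1.32), Zfp810 (1.19), Zfp963 (1.05) and Zfp770 (1.03) completed the 10 largest apart from those above. Zfp105 has no stretch shared with another transcript. It was at 36.3 to 53.0 in α4β7+ and at 78.0 to 143.7 in CD22+ libraries (limma adjusted p = 0.0026). Zfp457 ran from 13.5 to 59.2 in α4β7+ and from 64.9 to 89.4 in CD22+ libraries, with a limma adjusted p of 0.02. Without α4β7+ replicate 1 or α4β7+ replicate 2 it was not called, and its highest adjusted p over the alternatives was 0.0609. Zfp963 lost its call without α4β7+ replicate 3 or CD22+ replicate 3, with limma adjusted p of 0.0525 and 0.0528. The remaining 31 members that rose had smaller changes, and over all 41 the range was 0.59 to 1.88 with a median of 0.84. Of the 41, 34 had no overlap between the libraries of the 2 subsets, where 11% of all genes tested lay fully above. The calls came from the same libraries, so this separation follows in part from the call and adds no support.

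Zfp410 was higher in both other subsets than in α4β7+. It encodes an activator known for its narrow set of targets, chiefly Chd4, the ATPase of the NuRD corepressor complex. Its counts were 443.9, 487.7, 414.5 and 458.2 in α4β7+, 766.7, 675.4, 660.4 and 647.6 in α4β7− CD22−, and 710.0, 735.3, 712.0 and 703.4 in CD22+ libraries. The latter subsets overlapped each other and lay above α4β7+. In α4β7− CD22− against α4β7+ the log2 fold change was 0.61, and without α4β7+ replicate 3 or α4β7− CD22− replicate 1 it was 0.57 or 0.55, under the fold minimum. The log2 fold change of CD22+ against α4β7+ was 0.67 ± 0.09 (limma adjusted p = 5.74e-05). Chd4 itself had a log2 fold change of 0.05 ± 0.09 in that comparison (limma adjusted p = 0.76). An exon of Zfp410 overlaps Gm47484 on the other strand.

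The 4 members that fell from α4β7+ to CD22+ were Zfp971, Zfp970, Zfp593 and Zfp622, and none of them matched the KRAB A-box pattern. A missing match does not show that the domain is absent. Zfp622 encodes the counterpart of yeast Rei1, a factor of late 60S ribosomal subunit maturation. It was at 1947, 1669, 1685 and 1793 in α4β7+, 1081, 1234, 1141 and 1134 in α4β7− CD22−, and 1128, 1215, 1013 and 1056 in CD22+ libraries. All 8 libraries of the other subsets lay below the α4β7+ libraries. Its log2 fold change was -0.69 ± 0.08 in CD22+ against α4β7+ (limma adjusted p = 2.40e-05). With libraries rescaled to the total without ribosomal protein genes it was -0.54, under the fold minimum. Zfp593, the counterpart of yeast Bud20, which takes part in export of the same ribosomal subunit, was at 109.7 to 170.7 in α4β7+ and 55.0 to 84.2 in CD22+ libraries. Its log2 fold change was -0.77 ± 0.25 with a limma adjusted p of 0.0364, and the highest adjusted p over the alternatives was 0.111. It was not called with the replicate block, nor with no filter, nor under that scaling, nor without any one of 5 libraries (α4β7+ replicates 1, 2 and 3 and CD22+ replicates 2 and 4). Ribosomal protein genes, which are not members, fell in the same comparison in 70 of 82 cases, with a median log2 fold change of -0.90.

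Zfp971 showed the largest fall. Its counts were 891.1, 630.0, 1287 and 1006 in α4β7+, 392.4, 352.6, 408.7 and 286.6 in α4β7− CD22−, and 320.3, 329.0, 253.0 and 219.7 in CD22+ libraries. Every α4β7+ library lay above the other 8. Its log2 fold change was -1.74 ± 0.20 in CD22+ against α4β7+ (limma adjusted p = 1.42e-05). Zfp971 and Zfp970 are related copies on chromosome 2, with 91.3% identity over their longest aligned stretch, and 99.7% and 99.9% of the length of their transcripts is covered by matches to other genes at an identity of at least 90%, so how reads were divided among the copies is uncertain. The family members Zfp966, Zfp970, Zfp971 and Zfp973 were summed for this reason after their values were seen. The α4β7+ libraries had sums of 1058 to 1941, the α4β7− CD22− libraries of 681.3 to 935.4, and the CD22+ libraries of 571.7 to 817.5. The sum of these members was thus also lower outside α4β7+. Zfp971 itself held a mean of 953.5 of the 1536.7 in α4β7+. Related genes outside the members, such as Gm1980, were left out, so the sum cannot settle how reads were divided. Within the family, Zfp973 had a log2 fold change of 0.77, opposite to those of Zfp971 and Zfp970 (-0.80), and Zfp966 one of -0.28.

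**Figure D3:**
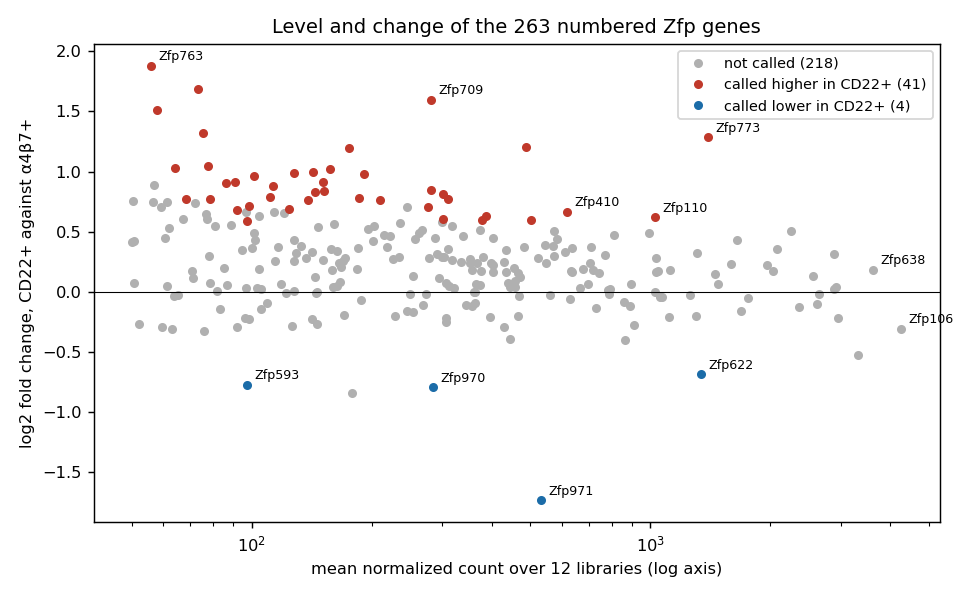
Log2 fold change of CD22+ against α4β7+ (vertical axis) against the mean normalized count over 12 libraries (horizontal log axis) for the 263 members. The 41 members called higher (red) lie mostly at low and middle levels, and the 4 called lower (blue) are Zfp593, Zfp970, Zfp622 and Zfp971.

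Ordered by mean count into 4 groups, 16 of 66 members with the lowest means rose, followed by 12 of 66, 10 of 65 and 3 of 66 with the highest, and 1, 0, 2 and 1 fell, where 5.60% of all genes tested rose and 6.39% fell. With no minimum fold change 17, 19, 16 and 15 were higher, against 10% of all genes, and the difference between the groups was not tested. The median log2 fold change was 0.44, 0.31, 0.24 and 0.15 in the same order. Of the 10 members with the highest counts none reached the fold minimum in this comparison, but 3 had a limma adjusted p under 0.05 and no overlap of libraries. Zfp704 was at 3680 to 4282 in α4β7+ and 2466 to 2877 in CD22+ libraries, with a log2 fold change of -0.52 ± 0.09 (limma adjusted p = 0.000611). The others were Zfp106 (-0.31, limma adjusted p = 0.0077) and Zfp217 (0.31, limma adjusted p = 0.0138). Per kilobase of transcript the members ranged from 7.87 to 1514 normalized counts with a median of 74.2, and Zfp207, which encodes the spindle protein BuGZ, stood highest. These values assume that the authors' normalization held no factor specific to a gene, which is not given in the sources used here. Zfp207 had a log2 fold change of -0.13 ± 0.07 in CD22+ against α4β7+ (limma adjusted p = 0.218).

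From α4β7+ to α4β7− CD22− eosinophils 20 members rose and 4 fell, where 3.70% of all genes tested rose and 4.35% fell. Without α4β7− CD22− replicate 2 the counts were 13 and 2. Without α4β7+ replicate 1 only 1 fell, and 2 fell without any one of α4β7+ replicate 3 and α4β7− CD22− replicates 1 and 4. With libraries rescaled to the total without ribosomal protein genes 30 rose and 1 fell. Under that scaling 779 of all genes tested rose and 516 fell, beside 564 and 664 in the main scaling. Estimates were above 0 for 196 members (74.5%), with a median log2 fold change of 0.17 beside 0.00 over all genes. With no minimum fold change, 30 members were higher and 7 lower, against 7.13% and 7.73% of all genes. The libraries did not overlap for 43 members in the upward and 6 in the downward direction, against 8.96% and 9.80% of all genes. This comparison and that of CD22+ with α4β7+ share the α4β7+ libraries and are not independent of each other.

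Among the members called from α4β7+ to α4β7− CD22−, the largest rises were those of Zfp763 (log2 fold change 1.51), Zfp773 (1.00), Zfp28 (0.95), Zfp709 (0.91), Zfp975 (0.82), Zfp53 (0.80), Zfp579 (0.77), Zfp267 (0.75) and Zfp867 (0.73), together with Zfp995, which was at 16.2 to 58.6 in α4β7+ and 65.3 to 96.1 in α4β7− CD22− libraries. Zfp775 (1.07), Zfp457 (1.05) and Zfp105 (0.84) had estimates of similar size but were not called (limma adjusted p = 0.125, 0.125 and 0.0537). Zfp579 was at 97.9 to 172.2 in α4β7+ libraries, at 208.0 to 290.2 in α4β7− CD22− libraries, and at 136.6 to 234.3 in those of CD22+. It thus differed between the first pair of subsets, with a limma adjusted p of 0.0277, and had an adjusted p of 0.276 between CD22+ and α4β7+. Zfp995 shares almost its whole transcript and Zfp975 95.4% of it with other genes, so that their counts are uncertain. Zfp975 lost its call without any one of 10 of the 12 libraries (the exceptions being α4β7+ replicate 1 and α4β7− CD22− replicate 1), with a limma adjusted p of up to 0.147. Nor was it called with the replicate block (limma adjusted p = 0.0796), with a pseudocount of 10, with no filter, with a filter at 50, or in a fit of the 2 subsets alone (0.0501 to 0.0942). The calls of 4 others also rested on single libraries. Zfp28 lost its call without α4β7+ replicates 1 or 2 or α4β7− CD22− replicates 2 or 4 (limma adjusted p up to 0.0711), and Zfp579 without α4β7+ replicates 3 or 4 or α4β7− CD22− replicate 2 (up to 0.0883). Zfp867 lost its call without α4β7+ replicates 3 or 4 or α4β7− CD22− replicates 2 or 4 (limma adjusted p up to 0.0635), and Zfp267 without replicate 3 of either subset (up to 0.0545).

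Zfp101, a KRAB gene of chromosome 17, was among the 4 that fell, with Zfp971 (-1.37), Zfp970 (-0.63) and Zfp622 (-0.63). It was at 577.5, 625.8, 440.8 and 293.5 in α4β7+, 249.4, 314.9, 359.1 and 268.9 in α4β7− CD22−, and 451.4, 390.7, 368.6 and 404.6 in CD22+ libraries. The first pair of subsets overlapped, and the CD22+ libraries lay above every α4β7− CD22− library. Its log2 fold change was -0.65 ± 0.20 in α4β7− CD22− against α4β7+ (limma adjusted p = 0.0386), and without any one of 6 libraries (α4β7+ replicates 1, 2 and 3 and α4β7− CD22− replicates 1, 2 and 4) it was not called, with a limma adjusted p of up to 0.1185. Nor was it called with no filter, without the variance trend, in a fit of the 2 subsets alone, or rescaled without ribosomal protein genes (limma adjusted p 0.0557 to 0.0788). Zfp970 was not called without any one of 7 libraries (α4β7+ replicates 1, 3 and 4, α4β7− CD22− replicates 1, 2 and 4, and CD22+ replicate 1; limma adjusted p up to 0.113), nor with no filter, without the trend or under any of the 3 other scalings (0.0538 to 0.0776). Without α4β7+ replicate 1 the log2 fold change of Zfp622 was -0.58, and rescaled without ribosomal protein genes -0.54, both under the fold minimum.

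Between CD22+ and α4β7− CD22− eosinophils no member was called by limma in either direction, where 0.210% of all genes tested rose and 0.393% fell. At an unadjusted p under 0.05 there were 20 members, 14 of them higher in CD22+, against 9.67% of all genes tested in both directions. With no minimum fold change 0 members were called either, where 0.256% of all genes rose and 0.820% fell. The smallest adjusted p was 0.0811, for Zfp709 (log2 fold change 0.69 ± 0.17). The median log2 fold change was 0.07 over the members and -0.00 over all genes. Above 0 were 176 members (66.9%), against 49.7% of all genes tested. Libraries did not overlap for 16 members in the upward and 5 in the downward direction, against 2.66% and 3.72% of all genes. The largest positive estimates were those of Zfp799 (0.81), Zfp760 (0.71), Zfp709 and Zfp810, and the largest negative ones those of Zfp456 (-0.73) and Zfp865 (-0.69), none of them called. Zfp810 was at 126.6 to 198.6 in α4β7− CD22− and 213.3 to 290.4 in CD22+ libraries (log2 fold change 0.65 ± 0.22, limma adjusted p = 0.272).

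Ordered by subset means, 133 members (50.6%) were lowest in α4β7+ and highest in CD22+, against 24.9% of all genes tested, and 24 (9.13%) had the reverse order, against 24.8%. A further 63 members (23.95%) were highest and 43 (16.35%) lowest in α4β7− CD22−, against 25.5% and 24.8% of all genes. The order says nothing on whether neighbours differ, and between CD22+ and α4β7− CD22− no member passed the test.

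The summed normalized count of all members was 124135 ± 5087 (SD, n = 4) in α4β7+ libraries, 133710 ± 2215 (n = 4) in those of α4β7− CD22−, and 135179 ± 5745 (n = 4) in those of CD22+. Libraries of α4β7+ ranged from 120338 to 131585, those of α4β7− CD22− from 132287 to 137015 and those of CD22+ from 130227 to 143102, so that α4β7+ overlapped CD22+. The sum over the 108 members with a KRAB A-box match did not overlap between α4β7+ (27642 to 30925) and the others (31678 to 33483 and 34202 to 37259). The sum over the members without a match overlapped between all subsets (91806 to 100513, 99152 to 104147 and 95875 to 105661). As a share of the library total, members took 0.741% to 0.778%, 0.871% to 0.881% and 0.893% to 0.970%, with no overlap. Library totals were themselves lower in CD22+ (14286470 to 14758270) than in α4β7+ (15783610 to 16915760) after the authors' normalization.

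**Figure D4:**
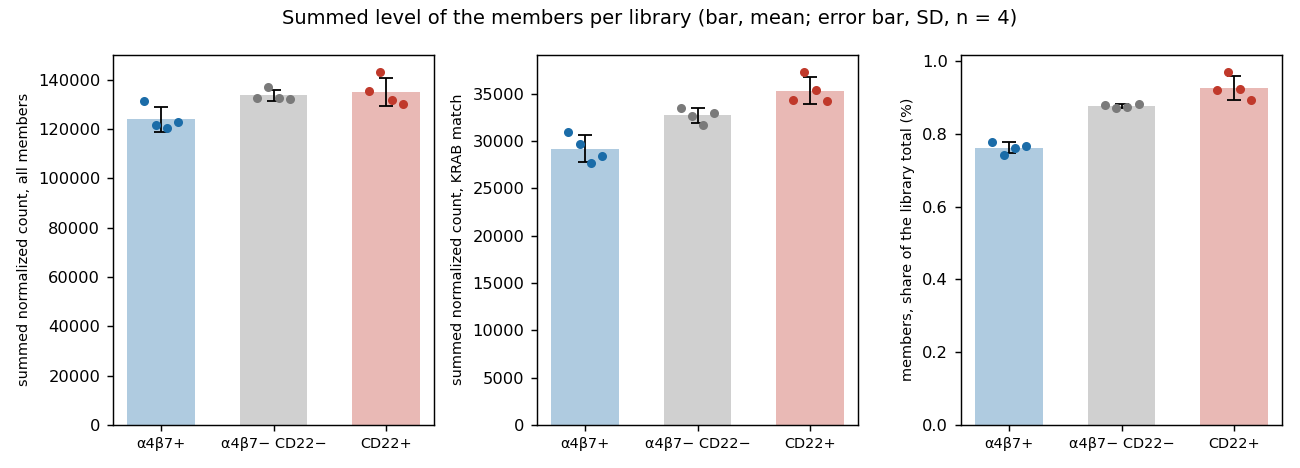
Summed normalized count of the 263 members (left), of the 108 with a KRAB A-box match (middle) and the members' share of the library total in percent (right), with points for libraries, bars for the mean and error bars for the SD (n = 4). The sum over all members overlaps between α4β7+ and CD22+, while the KRAB sum and the share of the total do not.

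Coding sequences of 261 members were translated and searched for 2 patterns. The number of C2H2 finger matches ran from 0 to 36 with a median of 10, and 4 members had none. A KRAB A-box match was found in 108, with a median of 12 fingers, and in 153 there was no match, which does not show that the domain is absent. Of the 108, 24 rose and none fell from α4β7+ to CD22+, with a median log2 fold change of 0.29, whereas of the 153, 17 rose and 4 fell, with a median of 0.18. Of all genes tested 5.60% rose and 6.39% fell. The difference between these groups was not tested. By finger number, 2 rose and 2 fell of 33 members with 0 to 3 matches (median 0.03), shares close to those of all genes, 6 rose of 40 with 4 to 7 (0.18), 16 rose of 80 with 8 to 11 (0.25), 9 rose and 2 fell of 61 with 12 to 15 (0.28), and 8 rose of 47 with 16 or more (0.29).

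**Figure D5:**
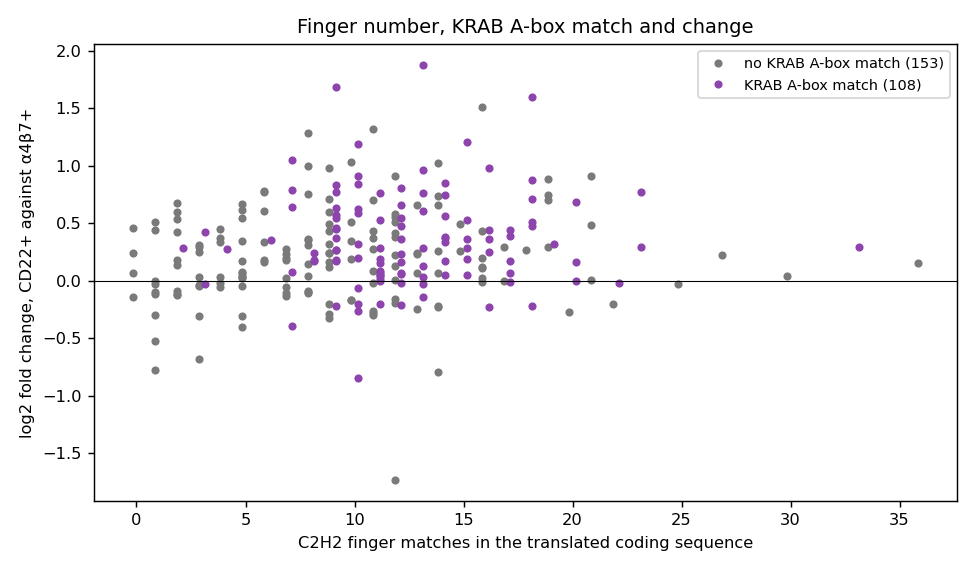
Log2 fold change of CD22+ against α4β7+ (vertical axis) by number of C2H2 finger matches (horizontal axis) for the 153 members without (grey) and the 108 with (purple) a KRAB A-box match. Members with 0 to 3 matches are centred near 0 (median 0.03), and those with more lie mostly above it.

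Paralogues could exchange reads, which limits what single counts mean. In 35 members over 50% of the transcript matched other genes, and 7 of these rose and 2 fell from α4β7+ to CD22+, where 5.60% of all genes tested rose and 6.39% fell. Of the other 228, 34 rose and 2 fell, with a median log2 fold change of 0.25. Among 113 members with no shared stretch at all, 15 rose and 2 fell, with a median of 0.24. Zfp110, which encodes NRIF, a factor bound by the neurotrophin receptor p75, rose with a log2 fold change of 0.62 ± 0.08 (limma adjusted p = 3.14e-05), from 723.3 to 817.1 in α4β7+ to between 1187 and 1246 in CD22+ libraries. Without α4β7+ replicate 3 the log2 fold change was 0.58, just under the fold minimum. It shares 79.3% of its transcript with Zfp369, its close relative, which had a log2 fold change of 0.03 ± 0.10 (limma adjusted p = 0.889). Exons of 65 members overlap a gene on the other strand, and 8 of these rose and 1 fell.

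Members lay on 20 chromosomes, and 121 of them in 16 clusters of at least 4 with gaps of at most 500 kb (GENCODE, GRCm38). The cluster at chr17:32765496-33631779, which holds Zfp763 and Zfp101, had 11 members, of which 4 rose from α4β7+ to CD22+, with a median log2 fold change of 0.63, where 5.60% of all genes tested rose and 6.39% fell. A cluster of 6 at chr7:12478293-12985714, with Zfp110, held 3 that rose and had a median of 0.63. At chr8:71882019-71993792, which begins with Zfp709, 2 of 4 rose (median 0.62). By contrast, none of the 11 members at chr7:29768552-30169750 was called by limma, with a median of 0.04, although 7 of them had a KRAB A-box match. Over the 16 clusters the medians ran from -0.03 to 0.63, and neighbouring genes are not independent.

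Members with well-known roles were grouped by role, and their counts stand beside the 5.60% and 6.39% of all genes that rose and fell from α4β7+ to CD22+. Of 11 members that act on RNA, ribosomes or the spindle, 1 rose and 2 fell from α4β7+ to CD22+, and the median log2 fold change was -0.02. The member that rose was Zfp318, whose product is needed in B cells for the alternative transcript that encodes IgD, with 240.8 to 391.5 in α4β7+ and 391.7 to 495.5 in CD22+ libraries (log2 fold change 0.60 ± 0.15, limma adjusted p = 0.00824). Without α4β7+ replicates 2, 3 or 4 or CD22+ replicate 4 the log2 fold change was 0.50 to 0.58, and with a pseudocount of 10 it was 0.58, under the fold minimum. Zfp106, an RNA-binding protein gene with the highest mean count of all members before length is taken into account (4261), had a log2 fold change of -0.31 ± 0.07 (limma adjusted p = 0.0077), below the 1.5-fold minimum. Zfp598, the ubiquitin ligase that marks collided ribosomes, was at -0.02 ± 0.09 (limma adjusted p = 0.89).

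Activators of widely used promoters gave small estimates apart from Zfp410. Zfp143, which binds promoters at the anchors of chromatin loops, had a log2 fold change of -0.14 ± 0.10 in CD22+ against α4β7+, Zfp148 one of -0.05 ± 0.09, Zfp281 one of -0.04 ± 0.10 and Zfp384 one of 0.15 ± 0.08, and none passed the limma test. Of 8 members bound to corepressors or chromatin none was called in this comparison, with a range of -0.29 to 0.49, although Zfp217, Zfp687 and Zfp608 had limma adjusted p of 0.0138, 0.011 and 0.0464 below the fold minimum. In α4β7− CD22− against α4β7+, Zfp703, which encodes a corepressor of the NET family, had a log2 fold change of 0.60 ± 0.18 (limma adjusted p = 0.0379). It lost that call with a pseudocount of 10 (log2 fold change 0.58), with no filter, without the trend, in a fit of the 2 subsets alone (limma adjusted p 0.0587 to 0.0594), and without any one of 6 libraries (α4β7+ replicates 1, 3 and 4 and α4β7− CD22− replicates 1, 3 and 4), with a limma adjusted p of up to 0.109.

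Zinc finger genes known to silence imprinted loci or retroelements differed in sign. Zfp445, a guardian of genomic imprints, was at 1583 to 2175 in α4β7+ and 2334 to 3165 in CD22+ libraries, with no overlap. Its log2 fold change was 0.51 ± 0.12 with a limma adjusted p of 0.00531, which stayed under the 1.5-fold minimum. Zfp809, which represses murine leukaemia proviruses, was at 492.8 to 551.2 in α4β7+ and 315.2 to 436.9 in CD22+ libraries, also with no overlap. It had a log2 fold change of -0.40 ± 0.12 (limma adjusted p = 0.0299), likewise under the minimum. Zfp932, which shares 99.2% of its transcript with other genes, had a log2 fold change of 0.05 ± 0.19 (limma adjusted p = 0.896).

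The genes through which KRAB proteins act were also measured. Of 44 corepressor and heterochromatin genes tested, 0 rose and 0 fell from α4β7+ to CD22+ by limma with the fold minimum, where 5.60% and 6.39% of all genes did. An unadjusted p under 0.05 was found for 11, against 32% of all genes, and their median log2 fold change was -0.00. Trim28 was at 751.5 to 963.0 in α4β7+ and 805.6 to 935.8 in CD22+ libraries, a log2 fold change of -0.01 ± 0.10 (limma adjusted p = 0.946). Setdb1, the H3K9 methyltransferase recruited by TRIM28, had one of -0.00 ± 0.09 (limma adjusted p = 0.993). Cbx5, which encodes heterochromatin protein HP1α, had one of 0.52 ± 0.16 with a limma adjusted p of 0.0325, under the 1.5-fold minimum. Also under that minimum, but lower in CD22+, were Morc3, of the microrchidia ATPases, with one of -0.29 ± 0.07 (limma adjusted p = 0.00543), and Rcor1, the CoREST subunit, with one of -0.41 ± 0.11 (limma adjusted p = 0.0106).

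Other zinc finger families were compared from α4β7+ to CD22+, where 5.60% of all genes tested rose, 6.39% fell and 32% had an unadjusted p under 0.05. Of 18 Zkscan and Zscan genes, which join a SCAN domain to C2H2 fingers, 9 rose and none fell, with a median log2 fold change of 0.60. Their largest rise was that of Zscan26 (1.17 ± 0.14, limma adjusted p = 2.06e-05). Of 38 Zbtb genes 1 rose and 1 fell (median 0.17), and of 13 Klf genes 0 were called by limma, with 7 at an unadjusted p under 0.05 (median -0.18). In the family of Zfp36, which encodes the mRNA decay factor tristetraprolin, 2 of 3 fell, led by Zfp36 itself with a log2 fold change of -1.59 ± 0.09 (limma adjusted p = 1.55e-08). Of the 58 numbered Zfp genes with a mean above 10 and at most 50, 3 rose and 1 fell, with a median of 0.21, a share of rises near that of all genes.

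Promoters were available from RefSeq (GRCm38.p6) for 220 members, of which 37 belong to the 41 that rose from α4β7+ to CD22+. In the 250 bases before the start, 10 motifs were searched on both strands (the TATA box TATAAA, the ZNF143 element ACTACAA, the ETS core CCGGAAG, the NRF1 site GCGCATGC, the YY1 site AAGATGGC, the CRE element TGACGTCA, the CCAAT box, the E-box CACGTG, the palindrome TCGCGA and the GC box GGGCGG), and the motifs described were chosen after their shares were seen. The ETS core was present in 27% of the 37, 16.4% of the other 183 members, 12.7% of 11143 genes tested and 7.05% of all 27025 promoters. The CCAAT box, which NF-Y binds, was present in 59.5%, 48.1%, 36.5% and 34.5% in the same order. The E-box was present in 0%, 8.74%, 7.79% and 6.05%. These 3 motifs share no common stretch, and a match is a description of the letters and no evidence of binding. The median GC content of the windows was 51.2% for the 37, 54.4% for the 183 and 58.8% for genes tested, and its part in these shares was not tested. The 120 bases just before the start are shown for Zfp53 (chr17:21488868-21488987, plus strand), which holds the ETS core and CCAAT, and for Zfp773 (chr7:7136756-7136875, minus strand), which holds CCAAT. Only matches to the ETS core and CCAAT, on either strand, are in capitals (CTTCCGG and ATTGG are the reverse complements). Other motifs searched are left in small letters.
Zfp53: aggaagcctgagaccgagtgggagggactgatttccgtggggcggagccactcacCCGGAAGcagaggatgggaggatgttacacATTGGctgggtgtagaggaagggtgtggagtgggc
Zfp773: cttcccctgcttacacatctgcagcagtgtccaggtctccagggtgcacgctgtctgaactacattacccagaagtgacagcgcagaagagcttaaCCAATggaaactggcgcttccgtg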

How the data were processed

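The deposited values are normalized counts, a signal per gene and library, which the authors made by trimming reads with Trimmomatic 0.39, pseudoaligning them to mm10 with kallisto 0.46.1 and normalizing with DESeq2 1.38.2. Libraries were prepared with a stranded total RNA kit from 3 ng of RNA. Low values lay within 5% of a common step in 42.0% to 70.7% of cases and within 0.05% in 5.44% to 15.1%, so whole reads could not be recovered and no count test was run. Read numbers were estimated from the most frequent low value and are approximate, since factors specific to each gene in the authors' normalization could not be told from the values, and intervals are limited by 4 libraries per subset.

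The test was limma 3.58.1 (R 4.3.3), fitted to all 12 libraries with a variance trend for genes with a mean above 10. It used the scale log2(normalized count + 1), which understates the change of low genes. Benjamini-Hochberg adjustment was made within each comparison. The members and the gene lists were chosen with earlier results of these data known. Named are all called members of a comparison and direction up to 10, the 10 with the highest mean, those nearest the threshold, and members with a well-known role. Others named were chosen after their values were seen. Positions, exons and coding sequences came from GENCODE M21 (GRCm38), matched by identifier for all 263 members. Translations of its longest coding transcripts were searched, in place of the RefSeq proteins first planned. Shared stretches are BLAST 2.17.0 matches of at least 75 bases at 90% identity.

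Replicate numbers were checked for pairing by correlating deviations from subset means. All 4 correlations were over 0.1 for CD22+ with α4β7− CD22− (0.135 to 0.203), so the numbers were taken to pair these, but not for the other comparisons (-0.0586 to 0.182). The labels do not say whether a number marks a shared pool of mice or a sort day. The main fit used no pairing. Alternatives were the pseudocount, filter, scaling, variance trend, call rule, libraries in the fit, a replicate block, each library left out, and members by level. The restriction to members sharing at most 50% of their transcript was added after the data were seen.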

Additional observations from a re-analysis of the deposited data

Results flagged for a closer look

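Libraries that stood apart from the other 3 of their subset were sought with Dixon's criterion in 189 groups of 4, those of the 61 named members and of the summed levels. There were 10, where chance gives about 1 in 20. Zfp105 was at 52.95 in α4β7+ replicate 2, with the others at 36.3 to 39.0. Zfp593 was at 170.7 in the same library, with the others at 109.7 to 115.3, and Zfp932 at 223.4, with the others at 138.7 to 152.6. In α4β7− CD22− replicate 2, Zfp148 was at 1946.8 (others 1690 to 1713), Zfp579 at 290.2 (208.0 to 221.5), and Zfp703 at 214.5 (272.2 to 275.4). The summed level of the members in that library was 137015, with the others at 132287 to 132792. Zfp598 was at 612.4 in α4β7− CD22− replicate 4 (others 512.3 to 528.3), Zfp110 at 1245.9 in CD22+ replicate 1 (1187 to 1197), and Zfp831 at 2189.3 in CD22+ replicate 4 (2780 to 2883). Without α4β7+ replicate 2, 37 members rose and 3 fell from α4β7+ to CD22+, and without α4β7− CD22− replicate 2, 13 rose and 2 fell from α4β7+ to α4β7− CD22−.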

How the results depend on the processing

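No named call reversed its direction under any alternative. Of 36 calls of named members, 28 were kept under all 11 alternatives that leave the libraries in place and 21 without each library in turn. The alternative of adjusted p alone drops the fold minimum, so it could lose no call. Named calls include the largest changes by choice, so these shares do not stand for all calls. Rescaled to the total without ribosomal protein genes, 75 members rose and 2 fell from α4β7+ to CD22+, and 30 rose and 1 fell from α4β7+ to α4β7− CD22−. The members' medians were then 0.388, 0.253 and, for CD22+ against α4β7− CD22−, 0.129. The median of all genes moved to 0.16, 0.09 and 0.06. The members stood 0.23, 0.16 and 0.07 above it, as in the main scaling. A single factor per library shifts members and all genes nearly alike, so this gap could hardly change and is no test. All genes called from α4β7+ to CD22+ were 854 higher and 975 lower, and 1447 and 706 under that scaling; from α4β7+ to α4β7− CD22− they were 564 and 664, and 779 and 516. The summed level was then 117550 in α4β7+ and 141789 in CD22+. With adjusted p alone, 67 rose and 9 fell from α4β7+ to CD22+, and 7 fell from α4β7+ to α4β7− CD22−. That last count was 2 with no filter, without the trend, or among members sharing at most 50% of their transcript, where 2 also fell from α4β7+ to CD22+. Members with a mean above 100 summed to 129789 in α4β7− CD22−.

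Without each library in turn, 35 to 44 members rose and 3 to 5 fell from α4β7+ to CD22+ (medians 0.204 to 0.252), and 13 to 18 rose and 1 to 5 fell from α4β7+ to α4β7− CD22− (0.160 to 0.215), the lowest count of falls being without α4β7+ replicate 1. No member was called between CD22+ and α4β7− CD22− in any of these fits.

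With replicate number as a block, 42 rose and 3 fell from α4β7+ to CD22+, and 19 rose and 4 fell from α4β7+ to α4β7− CD22−. Between CD22+ and α4β7− CD22−, where the numbers were taken to pair the libraries, 0 were called. Calls shared with the fit without the block were 43 of 45 and 22 of 24. Low counts limit precision most in the members with the lowest means.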
